A study of Mus musculus with 14 samples.

Results

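Left ventricles of mice kept on a regime that produces heart failure with preserved ejection fraction (HFpEF), and given an adeno-associated virus (AAV) with a hairpin against FoxO1, were compared by RNA sequencing with left ventricles of mice on a standard diet. The comparison takes the 5 libraries titled HFpEF-FoxO1-sh and the 5 titled Control, which is 10 of the 14 libraries of the series, and covers every gene with enough counts to test. Control mice had the standard diet for 10 weeks, and no virus is named for them. HFpEF-FoxO1-sh mice spent 6 weeks on the diet named High-Fat + L-NAME, with AAV-FoxO1-sh for 4 weeks. The 4 remaining libraries, HFpEF-scr, had the same diet and times with AAV-scramble-sh, and enter here to set the hairpin group beside another HFpEF group. All mice carry the genotype label C56Bl6, and no sex, age, virus serotype or promoter is given, nor whether each library is a separate animal, so p-values measure the spread between these libraries. The controls differ from the hairpin group in diet, L-NAME, virus and hairpin at once, and the parts of these in a difference cannot be told apart.

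L-NAME blocks nitric oxide synthases and raises blood pressure, and a fatty diet adds metabolic load. Together they give mice a stiff ventricle that still ejects normally. FoxO1 is a forkhead transcription factor that insulin signalling through Akt keeps out of the nucleus. Heart muscle burns mostly fatty acids, taken up from blood, carried into mitochondria as carnitine esters and shortened in the beta-oxidation spiral, and the receptor PPAR alpha switches on many of these enzymes when fatty acids accumulate. Around the muscle cells lie fibroblasts, vessels and resident macrophages, which make and remodel the matrix.

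Library totals ran from 13174118 to 21247155 expected counts. Levels are counts per 1000000 (CPM) after TMM scaling, given as mean ± SD of 5 libraries, and changes are log2 fold changes, HFpEF-FoxO1-sh minus control, ± SE from edgeR's quasi-likelihood fit. A gene was called when its Benjamini-Hochberg adjusted p over all 13588 genes tested was under 0.05. The first principal component of all 14 libraries (18.5% of the variance) kept controls, between -26.4 and -8.0, apart from hairpin libraries, between 8.7 and 17.0. HFpEF-scr libraries lay between -2.7 and 13.6, so this component did not separate the HFpEF groups. The second component (14.3% of the variance) did, with HFpEF-scr between 2.8 and 30.1 and hairpin libraries between -15.9 and -5.6. Controls lay between -7.2 and 3.1 on it.

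Foxo1, the target of the hairpin, had 44.2, 42.2, 42.4, 47.0 and 44.4 CPM in Control 1 to 5. In HFpEF-FoxO1-sh 1 to 5 it had 41.5, 46.0, 39.3, 43.8 and 41.4 CPM. The groups overlapped, and the difference of -0.05 ± 0.06 was not called (adjusted p = 0.583). Its 95% interval ran from -0.18 to 0.07, and against HFpEF-scr the difference was -0.04 ± 0.06 (adjusted p = 0.78). The target transcript in whole ventricle was thus not called lower in the libraries labelled HFpEF-FoxO1-sh, and each direction below is one between libraries as labelled. Foxo4, a second member of the family, rose by 0.32 ± 0.05 (adjusted p = 0.00126), from 68.5 ± 1.44 to 85.3 ± 5.61 CPM. Foxo3 had a difference of 0.02 ± 0.13 and Foxo6 one of -0.56 ± 0.21, neither called. Foxo6 was called lower without Control 4 (-0.66, adjusted p = 0.0485) and without HFpEF-FoxO1-sh 4 (-0.73, adjusted p = 0.0302). Of 29 genes listed as FoxO targets, 7 were called higher (24.1%, against 6.68% of all genes) and 1 lower (3.45%, against 6.28%). Refits that left out 1 library put the higher count at 4 without Control 2 or 3. Among them Cat, the peroxisomal catalase, rose by 0.54 ± 0.06, and Fbxo21, a ubiquitin ligase subunit, by 0.39 ± 0.08. Pdk4, the pyruvate dehydrogenase kinase that spares glucose, rose by 1.15 ± 0.23 (adjusted p = 0.00412) with controls at 282 to 734 CPM and hairpin libraries at 727 to 1363 CPM, a narrow overlap. Insr, the insulin receptor and the member called lower, had -0.18 ± 0.05 (adjusted p = 0.0294). It was not called with Control 1, 2 or 3 or HFpEF-FoxO1-sh 2, 3 or 4 left out (adjusted p = 0.0554 to 0.0746). In HFpEF-scr against the same controls, 6 of the 29 targets were called higher and none lower. The direct test between the HFpEF groups called 1 of the targets higher and 1 lower. Of the 4 Foxo genes, 1 was called higher and 1 lower in HFpEF-scr against control, and none between the HFpEF groups.

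Over all genes, 1760 were called (13.0% of those tested), 907 higher (6.68%) and 853 lower (6.28%) in the hairpin libraries. The shares of 6.68% higher and 6.28% lower are the background for each list count against control below. Most changes were small: 801 of the genes called higher and 584 of those called lower changed by at most 1.5-fold, and the median log2 change was 0.25 among the former and -0.42 among the latter. At least 2-fold changes were found for 36 genes that rose and 80 that fell. In CPM the groups did not overlap for 1307 of the called genes and for 12.1% of all genes (6.62% with the hairpin libraries higher and 5.53% lower). Before adjustment 3674 genes had a p under 0.05. A test against a fold of 1.2 in place of no change called 218 genes, 82 higher and 136 lower. Of the genes named below, Prnd, Cpt1b, Ankrd23, Pln, Folr2, Nppa, Acadvl, Snrpn and Irs1 share between 97.2% (Prnd) and 30.9% (Irs1) of their exon bases with another annotated gene, and Dusp5, Timp3 and Fbn1 between 22.1% (Dusp5) and 20.1% (Fbn1). Whether the counting used strand is not given in the sources used here, so reads of such overlapping genes may not be told apart.

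**Figure D1:**
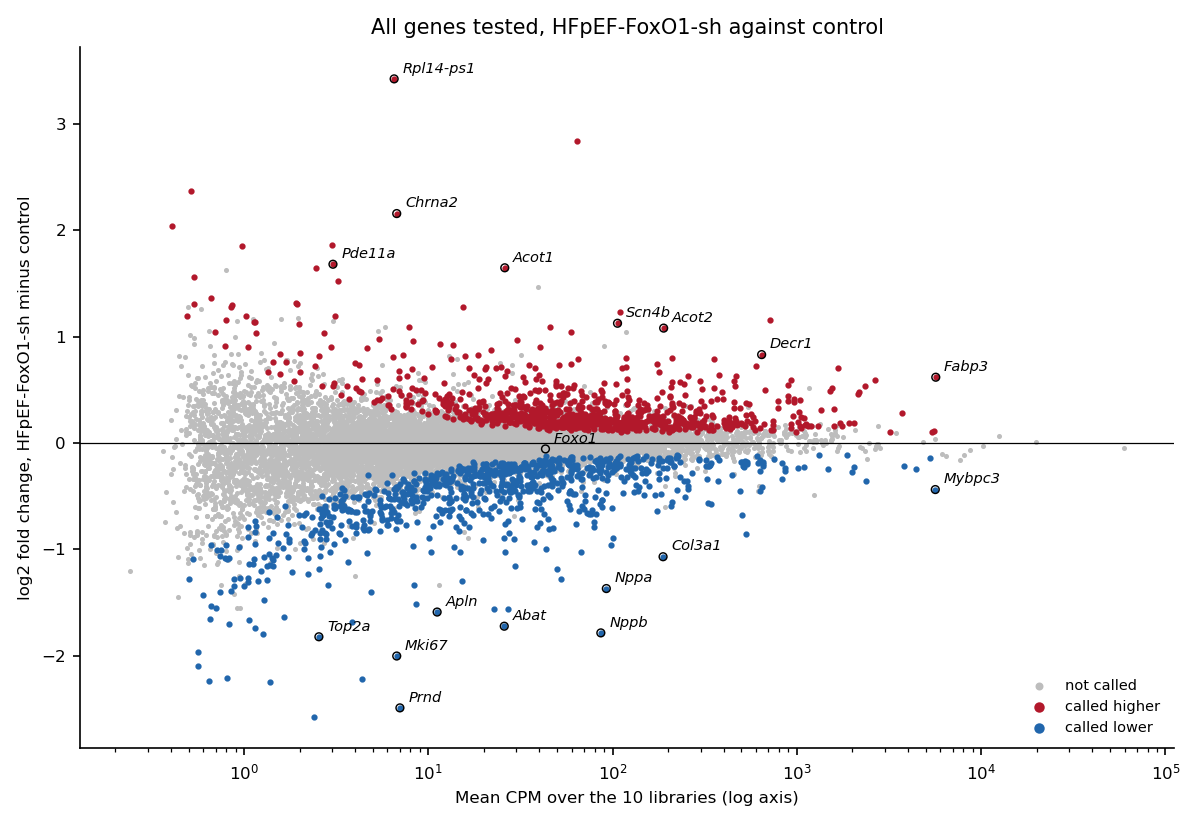
Each point is 1 of the 13588 genes tested, with the mean CPM over the 10 libraries on a log axis and the log2 change from control to HFpEF-FoxO1-sh on the other axis. Red and blue points are the 907 genes called higher and the 853 called lower. Circled genes are named in the text, Chrna2 far above and Prnd far below 0, with Foxo1 near 0.

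Enzymes that burn fatty acids had the highest share of called members among the lists with at least 10 tested. Of 28 tested genes of mitochondrial fatty acid oxidation, 24 were called higher (85.7%, against 6.68% of all genes) and none lower. The median change of the list was 0.39, where that of all genes was -0.0030. Decr1, the dienoyl-CoA reductase that handles unsaturated fatty acids, had 441, 411, 462, 529.5 and 471 CPM in Control 1 to 5. The hairpin libraries had 829, 813, 823, 822 and 835 CPM. Every one of them stood above the highest control, and Decr1 rose 1.78-fold (0.83 ± 0.06, adjusted p = 6.52e-07). Within the spiral, Acadvl, Acadl and Acadm, the dehydrogenases for very long, long and medium chains, rose by 0.49 ± 0.04, 0.52 ± 0.05 and 0.46 ± 0.06. Hadha and Hadhb, the subunits of the trifunctional protein, rose by 0.59 ± 0.06 and 0.54 ± 0.05, and Acaa2, the last thiolase, by 0.59 ± 0.07. Etfa and Etfdh, which pass the electrons on to the respiratory chain, rose by 0.33 ± 0.03 and 0.55 ± 0.05. In the carnitine shuttle, Slc25a20, the carrier across the inner membrane, rose by 0.63 ± 0.06, Cpt2 by 0.58 ± 0.06 and Cpt1b, the muscle form of the entry enzyme, by 0.38 ± 0.05. Cpt1a, the form of liver and other tissues, had 0.34 ± 0.11 and was not called (adjusted p = 0.0579), though it was without Control 4 (0.47, adjusted p = 0.00304), by DESeq2's Wald test (adjusted p = 0.0262) and by limma voom (adjusted p = 0.0377).

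In the use of ketone bodies, Bdh1, the hydroxybutyrate dehydrogenase, fell by 0.89 (SE 0.27; adjusted p = 0.0369), from 130.5 ± 31.8 to 70.3 ± 11.0 CPM. It was not called with Control 1, 2, 3 or 5 or HFpEF-FoxO1-sh 1, 2, 3, 4 or 5 left out (adjusted p = 0.0533 to 0.0845). Oxct1, which activates ketone bodies for burning, fell by 0.24 (SE 0.04; adjusted p = 0.000954). Of 11 genes of ketone and lactate use, 2 were called higher (18.2%) and 3 lower (27.3%). The count of lower calls was 1 without Control 5 or HFpEF-FoxO1-sh 4 or 5.

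Acyl-CoA thioesterases, which release fatty acids from their coenzyme, gave 3 of 11 tested members called higher (27.3%, against 6.68% of all genes) and none lower. Acot1, the cytosolic form, rose from 12.5 ± 3.29 to 39.5 ± 3.89 CPM (1.65 ± 0.18) and Acot2, its mitochondrial neighbour, from 121 ± 23.6 to 257 ± 8.82 CPM (1.08 ± 0.11). Both lie in 1 cluster of closely similar genes on chromosome 12, so reads may be split between them. In peroxisomes, 8 of 17 genes were called higher (47.1%) and none lower. Ech1, an isomerase of unsaturated chains, rose by 0.70 ± 0.07, and Pex11a, which divides peroxisomes, by 0.61 ± 0.10. Of genes of fatty acid uptake and lipid droplets, 10 of 26 were called higher (38.5%) and 1 lower (3.85%). Fabp3, the fatty acid binding protein of heart muscle, had 4633, 4039.6, 4186, 4832 and 4677 CPM in the controls. It had 7171, 7055, 6829.5, 6576 and 6731 CPM in the hairpin libraries, all above the controls, a change of 0.62 ± 0.05 (adjusted p = 1.13e-06). Cd36, the main uptake receptor, rose by 0.48 ± 0.04, and Slc27a1, an acyl-CoA synthetase of uptake, by 0.51 ± 0.10. Lpin1, a phosphatidate phosphatase and coactivator, was the member called lower (-0.35 ± 0.07). Of the regulators, Ppara, the receptor, had 0.03 ± 0.12 (adjusted p = 0.905) and Ppargc1a, its coactivator, 0.11 ± 0.14 (adjusted p = 0.67), and neither was called. Ucp2, an uncoupling protein counted with them, rose by 0.47 ± 0.11.

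**Figure D2:**
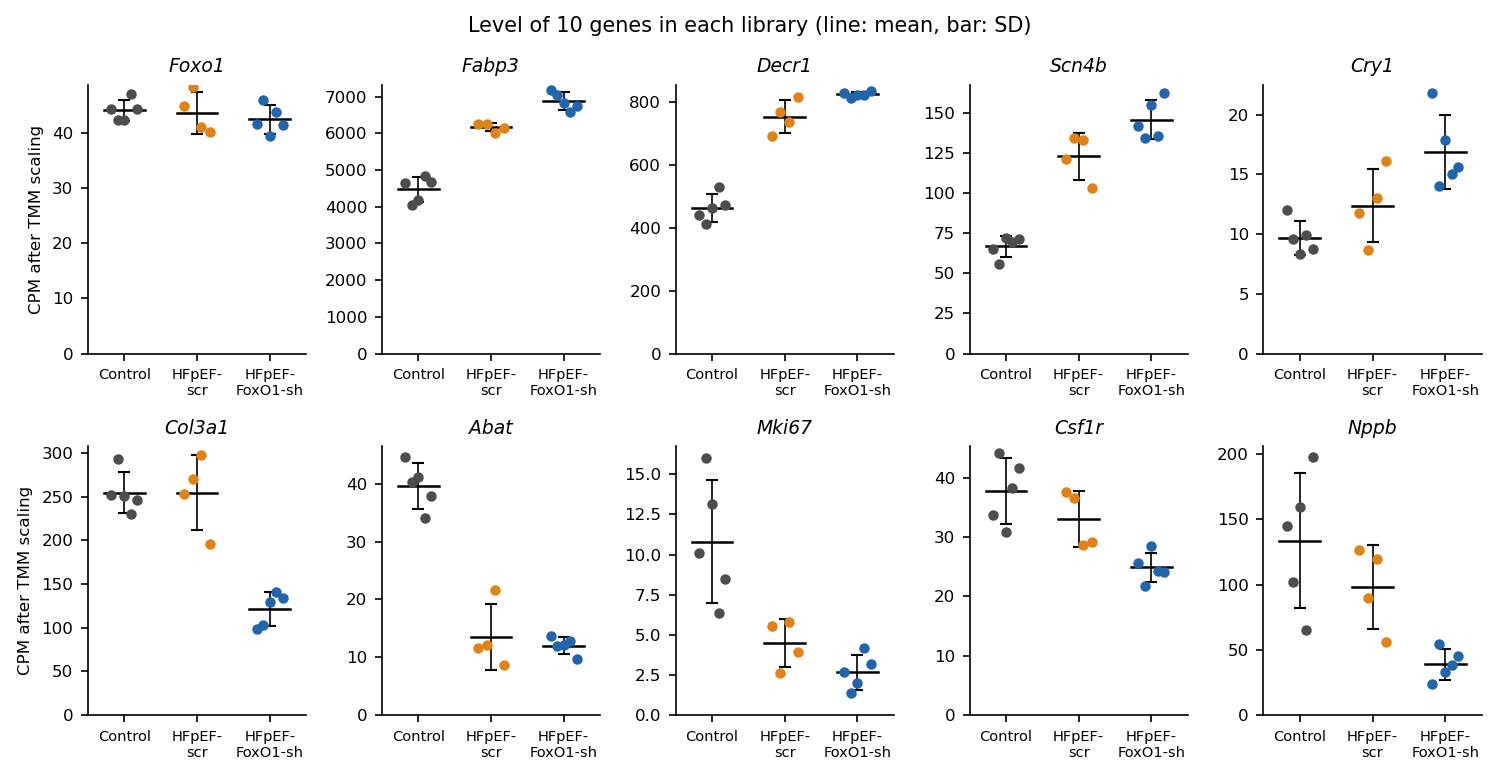
Points are the CPM of each library for 10 genes, by group, from 0 upwards, with the group mean as a line and the SD as a bar. Foxo1 overlaps in all 3 groups, Decr1 stands at 813 to 835 CPM in HFpEF-FoxO1-sh against 411 to 529.5 CPM in controls, and Col3a1 is lower in HFpEF-FoxO1-sh than in both other groups.

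GGNCAAAGG, the core of the direct repeat that PPAR receptors bind, was looked for on both strands of RefSeq promoters (250 bases before to 50 after the start, GRCm38.p6), given for 10172 of the tested genes. It was found in 2.41% of those promoters, in 2.34% of genes called higher and in 2.71% of genes called lower. Among called genes of fatty acid oxidation it occurred in Etfa alone (1 of 19 promoters), and among those of the peroxisomal list in Ech1 alone (1 of 6). Both are shown because they are the matches in these lists, with the element in capitals (in Etfa as its reverse complement), on the strand of the gene, from chr9:55512253-55512372 (minus strand) and chr7:28825089-28825208 (plus strand):
Etfa: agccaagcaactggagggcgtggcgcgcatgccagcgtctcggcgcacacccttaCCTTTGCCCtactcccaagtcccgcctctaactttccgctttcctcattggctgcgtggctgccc
Ech1: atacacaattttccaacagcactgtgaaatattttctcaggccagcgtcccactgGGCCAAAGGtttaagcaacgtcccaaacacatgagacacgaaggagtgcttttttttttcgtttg
The FoxO element GTAAACA was found in 3.08% of tested promoters, in 28 of 684 promoters of genes called higher (4.09%) and in 19 of 628 of genes called lower (3.03%). These matches describe the letters in this window and no binding.

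Carbohydrate genes leaned the other way. Of 26 genes of glycolysis and glucose uptake, 7 were called lower (26.9%, against 6.28% of all genes) and 1 higher. The lower count came to 3 without HFpEF-FoxO1-sh 5 and 4 without Control 2 or 5 or HFpEF-FoxO1-sh 4. Slc2a1, the basal glucose transporter, fell by 0.47 (SE 0.12), from 22.1 ± 3.28 to 15.9 ± 1.13 CPM. Eno3, the muscle enolase, had -0.24 ± 0.04, and Slc2a12, another glucose transporter, -0.51 ± 0.11, both called. Hk2, the main hexokinase of muscle, had -0.13 ± 0.07 and was not called (adjusted p = 0.247). Fbp2, the muscle bisphosphatase that runs against phosphofructokinase, rose from 29.2 ± 7.65 to 62.3 ± 3.15 CPM (1.09 ± 0.13, adjusted p = 6.39e-05). Pdha1, the catalytic subunit of pyruvate dehydrogenase, rose by 0.16 ± 0.03. Of the 29 genes of fatty acid and cholesterol synthesis, 6 were called lower (20.7%) and 1 higher (3.45%). Srebf2, the regulator of the cholesterol pathway, fell by 0.45 (SE 0.06) and Fasn, fatty acid synthase, by 0.40 (SE 0.06).

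Mitochondrial genes downstream of beta-oxidation rose by smaller steps. In the citric acid cycle 9 of 24 were called higher (37.5%) and 1 lower (4.17%), with a median of 0.11. Sdhc, a membrane anchor of complex II, rose by 0.33 ± 0.04, Idh1, the cytosolic isocitrate dehydrogenase counted with the cycle, by 0.34 ± 0.05, and Suclg2 by 0.26 ± 0.04. Pcx, pyruvate carboxylase, was the one called lower (-0.40 ± 0.04). Of 37 subunits of complex I, 9 were called higher (24.3%) and 2 lower (5.41%), and 33 lay above 0. Ndufs1, the largest subunit, had 843 to 897 CPM in controls and 1029 to 1049.6 CPM in hairpin libraries (0.25 ± 0.05). For complexes II to V, 14 of 46 were called higher (30.4%) and 3 lower (6.52%), with a median of 0.08. Calls of higher members numbered 8 without HFpEF-FoxO1-sh 1 and 9 without HFpEF-FoxO1-sh 3. The respiratory lists differed from HFpEF-scr too: 18 of the 46 were called higher than in HFpEF-scr (against 1.32% of all genes) and none lower, and their median against HFpEF-scr was 0.14. HFpEF-scr against the same controls had a median of -0.06 for complexes II to V and of -0.06 for complex I. Of the 46, HFpEF-scr had 7 called lower and 1 higher than control. In the hairpin libraries against control, Cox6c rose by 0.21 ± 0.04 and Cycs, cytochrome c, by 0.18 ± 0.04, while Cox7a1, the muscle form of a complex IV subunit, fell by 0.18 (SE 0.04).

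Abat, the mitochondrial transaminase that breaks down GABA, was among the strongest falls. Control 1 to 5 had 44.7, 40.4, 41.2, 34.0 and 37.8 CPM. HFpEF-FoxO1-sh 1 to 5 had 13.6, 11.9, 12.1, 12.8 and 9.66 CPM, all under the lowest control, a fall to 0.303 of the control level (-1.72 ± 0.17, adjusted p = 1.5e-05). Gpt2, an aminotransferase that makes alanine in mitochondria, rose by 0.30 ± 0.08. In the breakdown of branched-chain amino acids 1 of 22 genes was called (4.55%), Bckdhb, with -0.20 ± 0.04.

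Many matrix genes were called lower in the hairpin libraries against both other groups. Of 60 fibrillar and matrix genes 17 were called lower (28.3%) and 1 higher. Col3a1, a fibrillar collagen of fibroblasts, had 252, 293, 251, 229.9 and 246 CPM in Control 1 to 5. It had 98.3, 103, 129.6, 141 and 134 CPM in HFpEF-FoxO1-sh 1 to 5, with no overlap. The level fell to 0.477 of control (-1.07 ± 0.11, adjusted p = 2.23e-05). HFpEF-scr had 254 ± 43.1 CPM (n = 4), and against it the hairpin libraries differed by -1.07 ± 0.12 (adjusted p = 0.000149). Col1a1 fell by 0.74 (SE 0.08), Col1a2 by 0.28 (SE 0.07) and Col5a3 by 1.15 (SE 0.23). Fbn1, the fibrillin of elastic microfibrils, had 82.1 to 109 CPM in controls and 40.6 to 47.8 CPM in hairpin libraries (-1.03 ± 0.11, adjusted p = 2.51e-05). Loxl1 and Loxl2, which cross-link elastin and collagen, fell by 0.56 (SE 0.06) and 0.64 (SE 0.07). Col15a1, at the surface of vessels and muscle cells, fell by 0.96 (SE 0.11), and Sparc, a collagen-binding protein, by 0.44 (SE 0.10). The fall did not take in the whole list, since Mgp, an inhibitor of calcification, rose by 0.31 ± 0.07, and Postn, periostin, with 0.01 ± 0.14, Fn1, fibronectin, with -0.21 ± 0.14, and Lox with -0.31 ± 0.16 were not called.

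Sheet-forming collagens followed. Of 25 genes of the basement membrane and collagen VI, 12 were called lower (48.0%) and 2 higher. Col4a1, the main basement membrane collagen, had 837, 741, 654, 579.8 and 588 CPM in controls. In the hairpin libraries it had 330.2, 392, 383, 387 and 383 CPM, none reaching the lowest control (-0.86 ± 0.10, adjusted p = 5.08e-05). The 3 chains Col6a1, Col6a2 and Col6a3 fell by 0.54 (SE 0.07), 0.67 (SE 0.06) and 0.80 (SE 0.08). Agrn and Lama5, both of the basement membrane, were the pair called higher (0.29 ± 0.05 and 0.32 ± 0.06). Against HFpEF-scr, 18 of the 60 matrix genes and 10 of the 25 basement membrane genes were called lower (2.26% of all genes), with medians of -0.34 and -0.20. HFpEF-scr against the same controls had medians of 0.12 and 0.05.

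Several enzymes that cut the matrix also fell: 8 of 32 proteases and inhibitors were called lower (25%) and 2 higher (6.25%). Mmp14, a membrane-bound collagenase, fell by 0.69 (SE 0.15), Mmp15 by 0.49 (SE 0.06) and Adamts2, the procollagen peptidase, by 0.45 (SE 0.08). Timp3, a matrix-bound inhibitor, rose by 0.48 ± 0.11, from 329 ± 29.8 to 459 ± 22.5 CPM. Of 53 genes of TGF-beta and growth factor signalling 5 were called higher (9.43%) and 4 lower (7.55%), near the shares of all genes. In refits the higher count was 3 without Control 2, 3 or 5. The number called lower was 2 without Control 2 or 3 or HFpEF-FoxO1-sh 2 or 5. Among them, Tgfb1 fell by 0.44 (SE 0.07; adjusted p = 0.000642) while Bmp4 and Bmp6 rose by 0.50 ± 0.13 and 0.44 ± 0.09. Ctgf, a matricellular growth factor, ran from 68.0 to 180.4 CPM in controls and was not called (-0.34 ± 0.27). Sfrp5, a secreted inhibitor of Wnt, rose from 1.201 ± 0.506 to 3.72 ± 1.05 CPM (1.64 ± 0.39, adjusted p = 0.0117).

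Fibroblast markers other than collagens were not called. Of 15 fibroblast markers 3 were called lower (20%), all collagens (Col1a1, Col1a2 and Col3a1), and the median of the list was -0.04. Their summed level was 2161 to 2571 CPM in controls and 2073 to 2614 CPM in hairpin libraries. Pdgfra, the receptor that marks fibroblasts, had 0.22 ± 0.09 (adjusted p = 0.114). Pericyte and smooth muscle markers gave 1 of 13 called higher (7.69%, near the 6.68% of all genes) and none lower. Of 14 endothelial markers 3 were called higher (21.4%) and 1 lower (7.14%): Flt1 rose by 0.29 ± 0.07, Ly6c1 by 0.45 ± 0.08, and Cdh5, the endothelial cadherin, fell by 0.21 (SE 0.05). Of 12 cardiomyocyte markers 3 were called lower (25%), with a median of -0.06, and Myh6, the main myosin of mouse ventricle, had -0.05 ± 0.05. Their summed level was 118200 to 127000 CPM in controls and 110800 to 122400 CPM in hairpin libraries. The defining markers of the labelled tissue were thus present in every library. In whole tissue, fewer cells of a type and less RNA per cell cannot be told apart.

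Macrophage markers fell together. Of 17 tested markers 11 were called lower (64.7%) and none higher, with a median of -0.55. The summed level of all 19 markers found was 273.7 to 362.7 CPM in controls and 191.6 to 238.0 CPM in hairpin libraries. Csf1r, the receptor for the growth factor of macrophages, had 33.8, 44.2, 30.9, 38.3 and 41.7 CPM in Control 1 to 5. It had 25.7, 21.7, 28.5, 24.3 and 24.1 CPM in HFpEF-FoxO1-sh 1 to 5, and the groups did not overlap (-0.60 ± 0.11, adjusted p = 0.00161). Lyz2, a lysozyme, fell by 0.67 (SE 0.09), Mrc1, the mannose receptor of resident macrophages, by 0.55 (SE 0.11), Folr2 by 0.80 (SE 0.16) and Emr1, known as F4/80, by 0.70 (SE 0.13). Cx3cr1, the fractalkine receptor, had 2.01 to 5.86 CPM in controls and 1.33 to 2.21 CPM in hairpin libraries (-1.33 ± 0.28), where Control 1 lay within the hairpin range. Of these, Lyz2, Emr1 and Mrc1 were also called lower than in HFpEF-scr (-0.47 ± 0.10, -0.71 ± 0.14 and -0.58 ± 0.12). T and NK, B and neutrophil markers were mostly under the limit for testing, with 1, 3 and 2 tested and none called.

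Complement genes were called in both directions, and antigen presentation genes that were called all fell. Of 19 complement genes 5 were called lower (26.3%) and 3 higher (15.8%), the latter Masp1, C1s1 and Cd59a. Refits that left out 1 library put the higher count at 1 without Control 3 or HFpEF-FoxO1-sh 2. The complement genes C1qa and C1qc, made by tissue macrophages, fell by 0.42 (SE 0.10) and 0.44 (SE 0.09). C7, a terminal component, fell more, from 12.7 ± 4.94 to 4.42 ± 1.87 CPM (-1.51 ± 0.28, adjusted p = 0.00219), with 4.62 ± 1.41 CPM in HFpEF-scr (n = 4). Of 25 genes of antigen presentation 13 were called lower (52.0%) and none higher. The count of lower calls was 7 without Control 5 and 8 without HFpEF-FoxO1-sh 3 or 5. Cd74 and H2-Eb1, of the class II pathway, fell by 0.62 (SE 0.11) and 0.71 (SE 0.11). In class I, B2m had 156, 191, 178, 175 and 200.01 CPM in controls and 150.2, 127, 135, 152 and 116 CPM in hairpin libraries. The highest hairpin library lay just under the lowest control, Control 1, and the change was -0.41 ± 0.08 (adjusted p = 0.00288). H2-K1, a class I heavy chain that shares sequence with its relatives, changed by -0.49 ± 0.10, again with Control 1 lowest among controls. Of 45 interferon-induced genes 8 were called lower (17.8%) and none higher. The lower count came to 4 without Control 2 and 5 without Control 5 or HFpEF-FoxO1-sh 3. Iigp1, a GTPase against intracellular parasites, had 63.9, 123, 92.5, 86.0 and 100.4 CPM in controls and 54.9, 54.6, 57.8, 64.4 and 61.6 CPM in hairpin libraries. Control 1 again lay within the hairpin range for Iigp1, and the other controls above it (-0.66 ± 0.13, adjusted p = 0.00377). Irf8, a factor of myeloid cells, fell by 0.59 (SE 0.15), Bst2 by 0.56 (SE 0.11), and Relb and Nfkb2, of the noncanonical NF-kB pathway, by 0.56 (SE 0.13) and 0.37 (SE 0.06). The list of cytokines, chemokines and NF-kB targets had 4 of 45 called lower (8.89%, against 6.28% of all genes). In it 1 was called higher (2.22%, against 6.68%), and the median was -0.28. The antigen presentation list had a median of -0.33 in HFpEF-scr against the same controls, where it was -0.46 here, and 1 of 25 differed between the HFpEF groups. Macrophage markers moved with these genes, and their part in the change was not tested.

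Genes of cell division fell by large steps. Of 47 cell cycle genes 17 were called lower (36.2%) and none higher, with a median of -0.52. Mki67, the antigen of cycling cells, had 10.1, 16.03, 13.1, 6.33 and 8.45 CPM in Control 1 to 5. HFpEF-FoxO1-sh 1 to 5 had 2.66, 1.34, 2.00, 4.15 and 3.20 CPM, each under the lowest control, Control 4. The level fell to 0.25 of control (-2.002 ± 0.29, adjusted p = 0.000355). Top2a, the topoisomerase of replicated chromosomes, fell by 1.82 (SE 0.32) from 3.98 ± 1.36 to 1.12 ± 0.558 CPM. Ccna2 and Cdk1, a cyclin and its kinase, fell by 1.64 (SE 0.30) and 1.40 (SE 0.35). Ccnd2, a cyclin of the G1 phase with 213 ± 26.5 CPM in controls, fell by 0.48 (SE 0.07). None of the 47 was called between the HFpEF groups, and the median against HFpEF-scr was -0.16. Which cells divided cannot be read from whole tissue.

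The CHR element TTTGAA and the CCAAT box CCAAT, which lie before many genes of the late cell cycle, were looked for on both strands. TTTGAA was in 13.9% of tested promoters and in 18 of 37 promoters of tested cell cycle genes (48.6%), and in 8 of the 10 available for genes called lower. CCAAT was in 42.5% of tested promoters, in 29 of 37 of the cell cycle list (78.4%) and in all 10 of those called lower. Of the genes with both, Mki67 and Top2a are shown as the members described above, with both elements in capitals in either direction (TTCAAA and ATTGG are the reversed forms), on the strand of the gene, from chr7:135716460-135716579 (minus strand) and chr11:99024207-99024326 (minus strand):
Mki67: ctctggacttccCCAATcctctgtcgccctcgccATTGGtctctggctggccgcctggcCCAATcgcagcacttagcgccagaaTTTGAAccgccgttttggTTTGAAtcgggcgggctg
Top2a: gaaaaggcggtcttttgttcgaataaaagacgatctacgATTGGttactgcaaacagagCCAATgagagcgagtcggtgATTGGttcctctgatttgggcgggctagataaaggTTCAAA

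**Figure D3:**
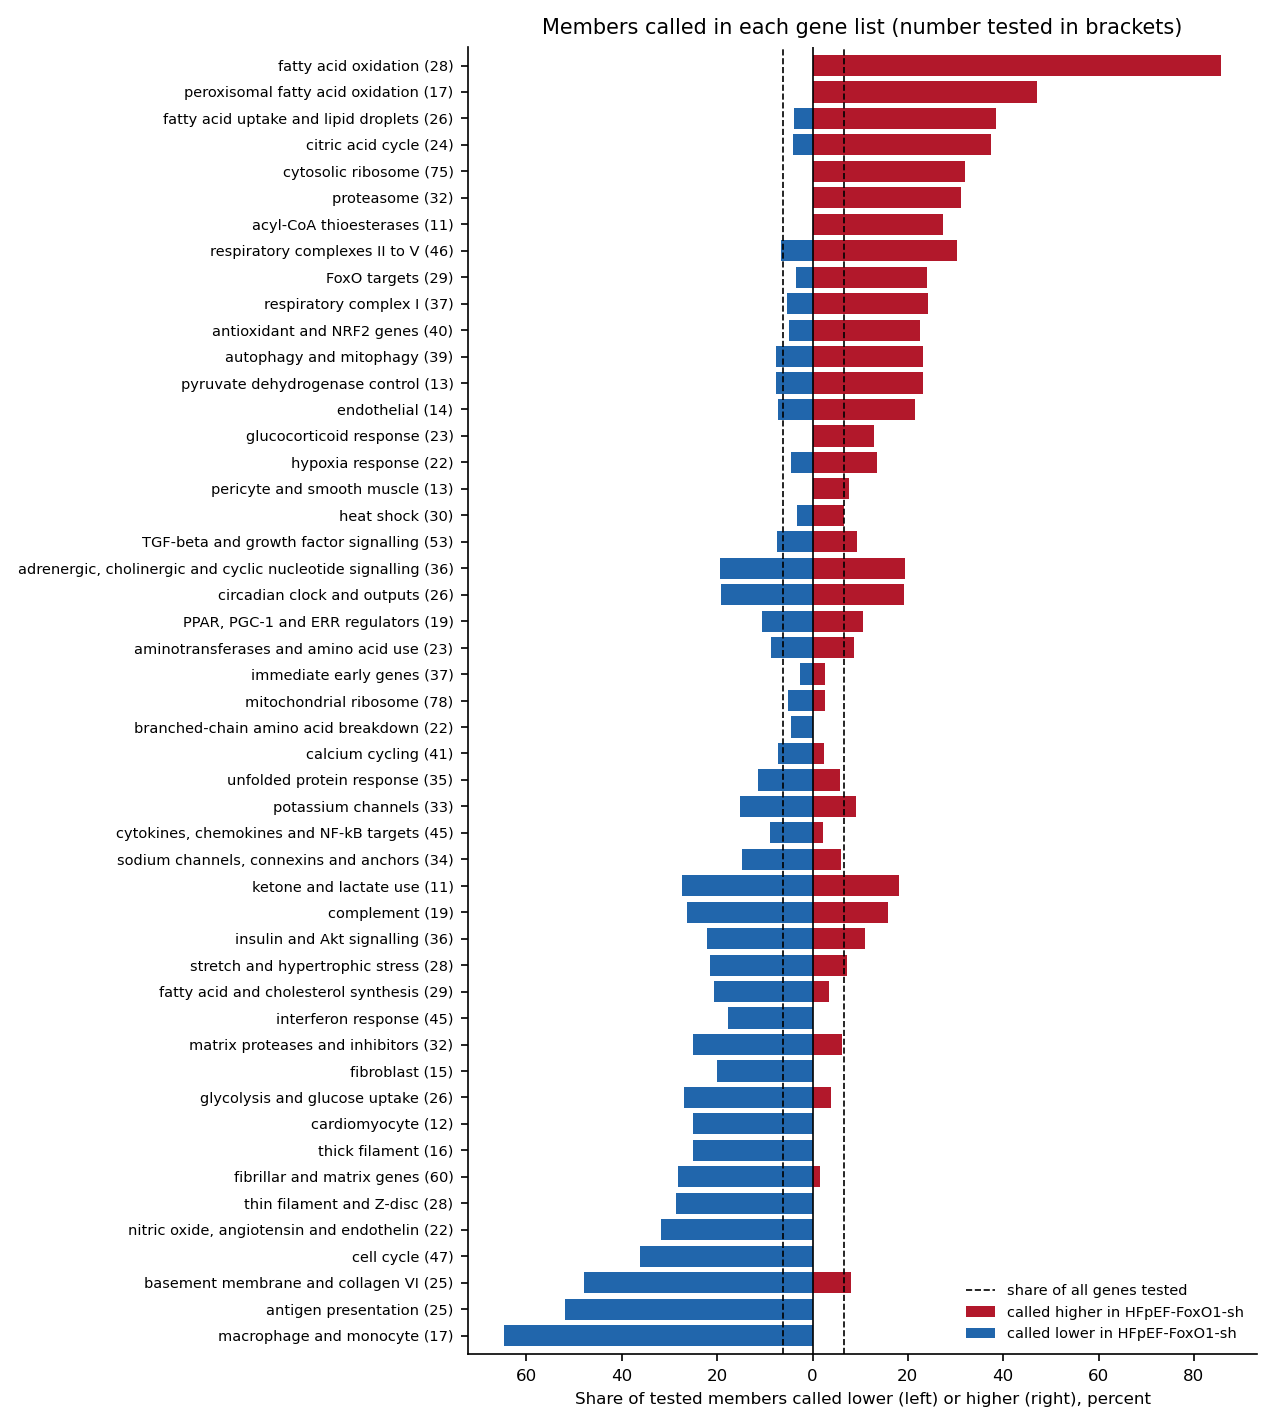
For each gene list with at least 10 tested members, the bars give the percent of tested members called higher (red, to the right) and lower (blue, to the left) in HFpEF-FoxO1-sh against control, with the number tested in brackets. The dashed lines are the shares of all genes, 6.68% higher and 6.28% lower. Fatty acid oxidation stands farthest to the right with 85.7%, and macrophage markers farthest to the left with 64.7%.

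Both natriuretic peptides fell. Nppb, the B-type natriuretic peptide released by stretched muscle cells, had 145, 102, 159.8, 64.9 and 197 CPM in Control 1 to 5. It had 23.6, 54.5, 32.8, 38.6 and 44.9 CPM in HFpEF-FoxO1-sh 1 to 5, with Control 4 the lowest control and still above the highest of them. The change was -1.78 ± 0.28 (adjusted p = 0.000754), and against HFpEF-scr -1.34 ± 0.30 (adjusted p = 0.0244). Nppa, the atrial form, fell from 133 ± 34.1 to 51.7 ± 12.2 CPM (-1.37 ± 0.27, adjusted p = 0.00336), and against HFpEF-scr had -0.63 ± 0.28 (adjusted p = 0.216). Of 4 tested atrial markers Nppa itself was the 1 called lower. The summed level of all 8 atrial markers found, of which Nppa made up a large part, was 118.2 to 210.9 CPM in controls and 66.2 to 94.2 CPM in hairpin libraries. Ankrd23, an ankyrin repeat protein of the stretch sensor on titin, fell by 0.57 (SE 0.13), while Fhl1, a LIM protein, rose by 0.36 ± 0.06. The fetal genes Myh7 and Acta1 were not called. Myh7, the slow myosin, with 357, 449, 1216, 757 and 767 CPM in controls and 586, 615, 477, 468 and 447 CPM in hairpin libraries, had -0.45 ± 0.37, and Acta1, skeletal actin, had -0.60 ± 0.31. Control 3 held the highest Myh7 of the 10 libraries.

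Sarcomere genes that were called all fell, by small steps. They were 4 of 16 thick filament genes (25%) and 8 of 28 of the thin filament and Z-disc (28.6%). Mybpc3, the cardiac myosin binding protein, had 6152, 6653, 6842, 6081 and 6698 CPM in controls. In the hairpin libraries it had 4925, 4926, 4981, 4698 and 4422 CPM, all lower (-0.44 ± 0.05, adjusted p = 4.03e-05). Myl3, the ventricular essential light chain, fell by 0.25 (SE 0.04), Tnnc1, troponin C, by 0.27 (SE 0.04), Tnnt1, the slow skeletal troponin T, by 0.71 (SE 0.12), and Pdlim1, a Z-disc LIM protein, by 0.54 (SE 0.06). In HFpEF-scr, Mybpc3 had -0.37 ± 0.05 and Tnnt1 -0.80 ± 0.13 against the same controls. Calcium cycling lay near the background with 1 of 41 called higher (2.44%) and 3 lower (7.32%). Calls of lower members numbered 1 without Control 5 or HFpEF-FoxO1-sh 3 or 4. Ryr2, the release channel, had 0.00 ± 0.07, Atp2a2, the pump, 0.01 ± 0.04, and Pln, its inhibitor, 0.04 ± 0.03.

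The study's title concerns arrhythmia, and ion channel genes were called in both directions. Of 34 genes of sodium channels, connexins and anchors 2 were called higher (5.88%, under the 6.68% of all genes) and 5 lower (14.7%, against 6.28%). In refits the higher count was 1 without Control 3 or HFpEF-FoxO1-sh 1. Scn4b, the beta 4 subunit of sodium channels, had 64.9, 55.9, 71.9, 69.8 and 71.3 CPM in Control 1 to 5. It had 142, 135, 155, 136 and 162 CPM in HFpEF-FoxO1-sh 1 to 5, no library overlapping, a rise of 2.18-fold (1.13 ± 0.08, adjusted p = 1.13e-06). Gja1, connexin 43 of the gap junctions, fell from 729 ± 29.0 to 534 ± 31.2 CPM (-0.45 ± 0.06, adjusted p = 0.000215). Hcn2, a pacemaker channel, fell by 0.62 (SE 0.13), with 38.7 to 53.2 CPM in controls and 28.3 to 33.0 CPM in hairpin libraries. Among potassium channels 3 of 33 were called higher (9.09%) and 5 lower (15.2%). The number called lower was 3 without Control 3, 4 or 5 or HFpEF-FoxO1-sh 1, 2, 3, 4 or 5. Kcnv2, a modifier subunit, rose by 0.87 ± 0.12 and Kcnj5, of the acetylcholine-gated current, by 0.40 ± 0.06. Kcnip2, which shapes the transient outward current, fell by 0.35 (SE 0.07), and Kcnk3 by 0.22 (SE 0.05). Scn4b, Hcn2, Gja1, Kcnv2 and Kcnip2 were not called between the HFpEF groups.

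Receptor and cyclic nucleotide genes gave 7 of 36 called higher (19.4%) and 7 lower (19.4%). Chrna2, a nicotinic receptor subunit, rose, with 1.11 to 4.58 CPM in controls and 9.10 to 12.5 CPM in hairpin libraries (2.16 ± 0.22, adjusted p = 1.9e-05), and Pde11a, a phosphodiesterase of both cAMP and cGMP, did so too, with 0.89 to 2.11 CPM and 3.21 to 5.98 CPM (1.68 ± 0.26, adjusted p = 0.000592). Pde1c, the calcium-activated form, fell by 0.79 (SE 0.08). Prkar1a, which restrains protein kinase A, fell by 0.41 (SE 0.06) and Gnb3, a G protein beta subunit, by 1.33 (SE 0.21). HFpEF-scr had 2.06 ± 0.23 for Chrna2, 1.90 ± 0.27 for Pde11a and -1.22 ± 0.23 for Gnb3 against the same controls.

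In the vascular lists, 7 of 22 genes of nitric oxide, angiotensin and endothelin were called lower (31.8%) and none higher. Refits that left out 1 library put the lower count at 3 without HFpEF-FoxO1-sh 5 and 4 without Control 2 or HFpEF-FoxO1-sh 2. Apln, the peptide apelin, had 20.7, 17.0, 15.1, 13.5 and 17.5 CPM in controls and 5.71, 5.60, 5.10, 4.86 and 6.60 CPM in hairpin libraries. Every hairpin library was under every control, a fall to 0.332 of the control level (-1.59 ± 0.22, adjusted p = 0.000245). Aplnr, its receptor, fell by 0.81 (SE 0.20). Nos2, the inducible nitric oxide synthase and a target of L-NAME, fell by 0.75 (SE 0.11). Prnd, a prion-like protein of endothelium, fell from 11.9 ± 1.65 to 2.13 ± 1.19 CPM (-2.49 ± 0.29, adjusted p = 4.53e-05). Against HFpEF-scr, Apln had -0.81 ± 0.24 (adjusted p = 0.0704) and Prnd -1.05 ± 0.33 (adjusted p = 0.0838), neither called.

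Genes of insulin and Akt signalling gave 4 of 36 called higher (11.1%) and 8 lower (22.2%). The count of higher calls was 1 without Control 2, 3 or 5 or HFpEF-FoxO1-sh 1 or 5 and 2 without Control 1 or HFpEF-FoxO1-sh 2 or 3. The lower count came to 5 without Control 2 or HFpEF-FoxO1-sh 2 or 4. Akt1, the kinase, fell by 0.50 (SE 0.09), Irs1, the docking protein of the insulin receptor, by 0.72 (SE 0.17), and Igf1, the growth factor, by 0.79 (SE 0.18). Its binding proteins Igfbp3 and Igfbp7 fell by 0.49 (SE 0.11) and 0.46 (SE 0.08), and both were also called lower than in HFpEF-scr (-0.48 ± 0.12 and -0.31 ± 0.08). Deptor, an inhibitor of the mTOR kinase, rose by 0.30 ± 0.06.

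Cytosolic ribosome and proteasome genes that were called all rose, by small steps. Of 75 cytosolic ribosome genes 24 were called higher (32%) and none lower, 67 lay above 0, and the median was 0.09. Calls of higher members numbered 15 without HFpEF-FoxO1-sh 2. Rps12 rose by 0.25 ± 0.04 and Rpl22 by 0.23 ± 0.04. These genes have processed copies, so reads may be shared with them, and Rpl14-ps1, the pseudogene with the largest rise of the called genes, is not described for that reason. Of 78 mitochondrial ribosome genes 2 were called higher (2.56%) and 4 lower (5.13%), shares below those of all genes. In refits the higher count was 0 without Control 2, 3 or 4 or HFpEF-FoxO1-sh 1, 2, 3 or 4 and 1 without Control 1 or HFpEF-scr 3 or 4. The number called lower was 2 without Control 1, 2, 3 or 5 or HFpEF-FoxO1-sh 1, 2 or 5. Of 32 proteasome genes 10 were called higher (31.2%) and none lower, with a median of 0.08. Refits that left out 1 library put the higher count at 4 without HFpEF-FoxO1-sh 1, 5 without Control 4 or HFpEF-FoxO1-sh 2 and 6 without Control 3 or 5 or HFpEF-FoxO1-sh 4. Psma5 rose by 0.21 ± 0.05. Among 40 antioxidant genes 9 were called higher (22.5%) and 2 lower (5%). Sod1, the cytosolic superoxide dismutase, rose from 261 ± 7.02 to 344 ± 12.9 CPM (0.39 ± 0.04, adjusted p = 3.15e-05), Prdx1, a peroxiredoxin, by 0.25 ± 0.04 and Gsta3, a glutathione transferase, by 1.09 ± 0.24, while Gpx1, a glutathione peroxidase, fell by 0.45 (SE 0.11). Of 39 genes of autophagy and mitophagy 9 were called higher (23.1%) and 3 lower (7.69%). The count of higher calls was 4 without Control 1 and 5 without HFpEF-FoxO1-sh 1, 4 or 5. The lower count came to 1 without Control 1, 3 or 5 or HFpEF-FoxO1-sh 1 or 3 and 5 without HFpEF-scr 3. Pink1, the kinase that marks damaged mitochondria, rose by 0.29 ± 0.06, and Ulk1, which starts autophagy, fell by 0.28 (SE 0.06). The unfolded protein response had 2 of 35 called higher (5.71%, under the share of all genes) and 4 lower (11.4%). Calls of higher members numbered 1 without Control 2 or 3 or HFpEF-FoxO1-sh 2. In refits the lower count was 2 without Control 1, 2 or 3 or HFpEF-FoxO1-sh 1, 3 or 5. Of its members Herpud1 rose by 0.55 ± 0.14 and Sdf2l1 fell by 1.12 (SE 0.19).

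Clock genes were called in both directions, 5 of 26 higher (19.2%) and 5 lower (19.2%). The number called higher was 2 without Control 2 or 3 or HFpEF-FoxO1-sh 1, 3, 4 or 5 and 3 without Control 5 or HFpEF-scr 3 or HFpEF-FoxO1-sh 2. Refits that left out 1 library put the lower count at 2 without HFpEF-FoxO1-sh 1 or 4 and 3 without Control 1, 2 or 3 or HFpEF-FoxO1-sh 2 or 3. Cry1, a repressor of the clock, had 12.0, 9.57, 8.35, 9.90 and 8.73 CPM in Control 1 to 5. It had 21.8, 14.0, 17.9, 15.0 and 15.6 CPM in HFpEF-FoxO1-sh 1 to 5, all higher (0.79 ± 0.15, adjusted p = 0.00325). Wee1, a mitotic kinase under clock control, rose by 0.97 ± 0.18, and Bhlhe40, a repressor, fell by 0.66 (SE 0.13). Arntl, the activator also called Bmal1, had 19.8, 5.71, 4.89, 1.95 and 3.41 CPM in controls and 1.46, 2.02, 1.52, 1.34 and 1.67 CPM in hairpin libraries. Control 1 stood far above the others, and Control 4 lay within the hairpin range (-2.21 ± 0.60, adjusted p = 0.0239). The call of Arntl was lost without Control 1 (adjusted p = 0.0779), HFpEF-FoxO1-sh 1 (adjusted p = 0.0553), HFpEF-FoxO1-sh 3 (adjusted p = 0.052) and HFpEF-FoxO1-sh 4 (adjusted p = 0.0524). The difference was -1.31 without Control 1, and limma voom did not call it (adjusted p = 0.136). Dbp, a clock output, also had its lowest level in Control 1, with 63.7, 178, 207, 214 and 218 CPM in Control 1 to 5, and was not called (0.13 ± 0.27). The time of day of tissue collection is not given, and its part in these genes was not tested. The E-box CACGTG, bound by the clock activators, was in 11.6% of tested promoters and in 5 of 19 of the clock list. It was in 0 of the 3 promoters available for clock genes called lower and in 2 of the 3 for those called higher, Cry1 and Tef. Both are shown with the element in capitals, on the strand of the gene, from chr10:85185052-85185171 (minus strand) and chr15:81802489-81802608 (plus strand):
Cry1: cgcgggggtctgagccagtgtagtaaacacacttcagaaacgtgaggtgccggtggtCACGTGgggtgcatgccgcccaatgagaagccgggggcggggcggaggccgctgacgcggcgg
Tef: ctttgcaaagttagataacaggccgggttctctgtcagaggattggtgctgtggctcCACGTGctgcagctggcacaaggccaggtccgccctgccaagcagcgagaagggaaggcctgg
Tef, an output factor, rose, with 132 to 253 CPM in controls and 273 to 292 CPM in hairpin libraries (0.45 ± 0.14, adjusted p = 0.0384). It was not called with Control 2 or 3 or HFpEF-FoxO1-sh 1, 2, 3, 4 or 5 left out (adjusted p = 0.0568 to 0.0792).

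Early response genes lay near the background. Of 37 tested, 1 was called higher (2.7%) and 1 lower (2.7%), with a median of 0.06, where HFpEF-scr against the same controls had a median of 0.72. Fos, the prototype, had 30.7, 1.56, 15.7, 35.5 and 73.8 CPM in controls and 3.45, 44.9, 13.6, 21.6 and 38.1 CPM in hairpin libraries, which overlapped (-0.38 ± 0.78, adjusted p = 0.806). Ier3 rose by 0.68 ± 0.10 and Dusp5, a phosphatase of ERK, fell by 0.61 (SE 0.16). Glucocorticoid-responsive genes had a median of 0.34, with 3 of 23 called higher (13%) and none lower. The count of higher calls was 1 without Control 1, 2 or 3 or HFpEF-FoxO1-sh 3, 5 without HFpEF-scr 2 and 7 without HFpEF-scr 4.

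**Figure D4:**
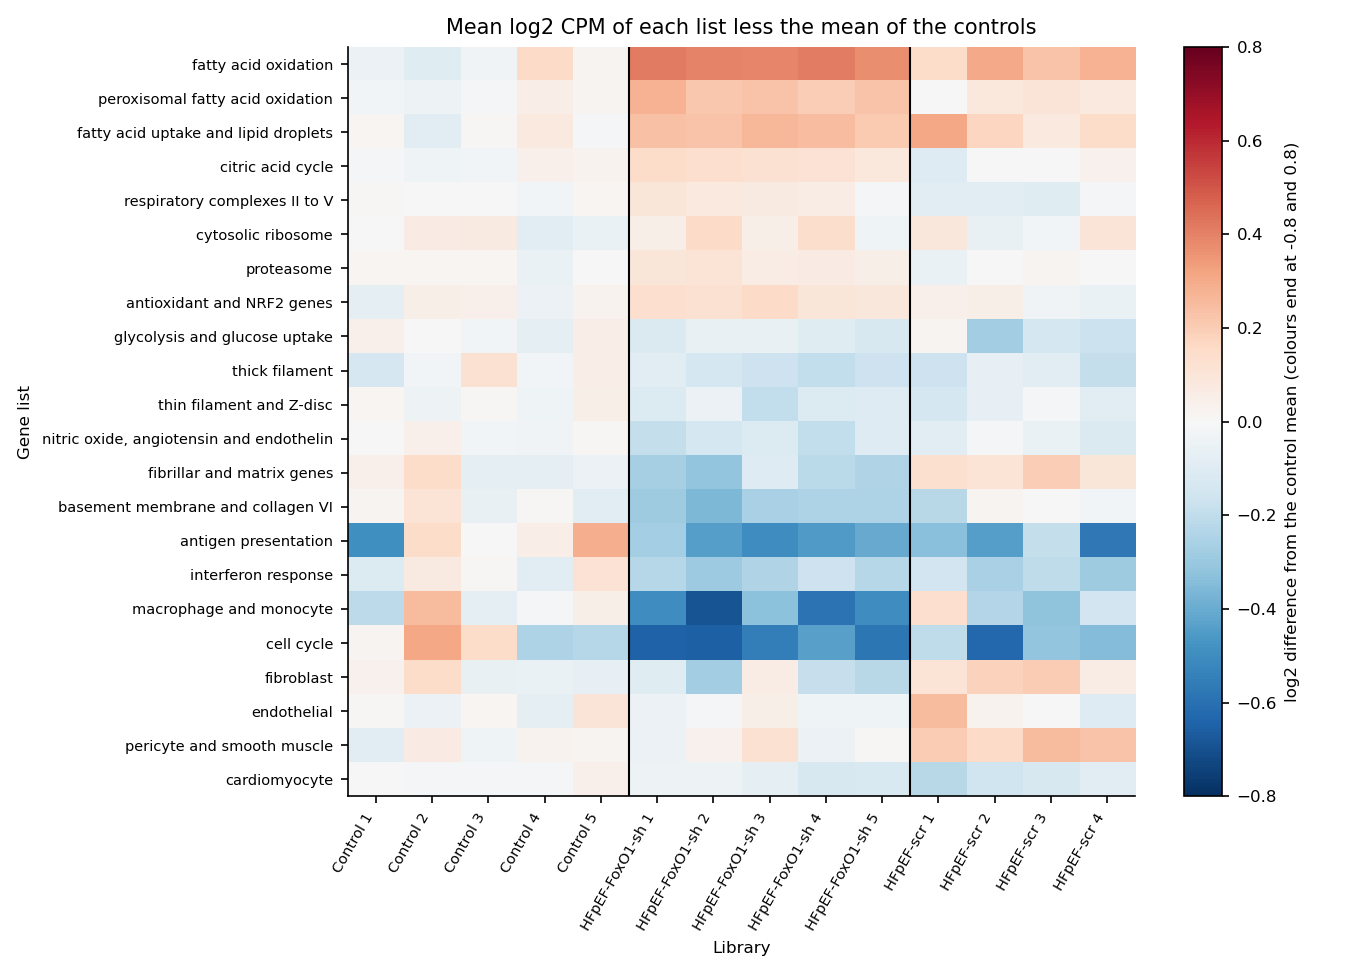
Each cell is the mean log2 CPM of a gene list in 1 library less its mean over the 5 controls, for 22 lists (rows) and 14 libraries (columns, with lines between groups), and colours end at -0.8 and 0.8. Fatty acid oxidation is high in all 5 HFpEF-FoxO1-sh libraries, matrix and macrophage lists are low in them, and Control 1 is low for antigen presentation.

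The same controls serve HFpEF-scr, so values of both HFpEF groups against control share them and are only set side by side here. HFpEF-scr against control called 7.37% of genes, 3.66% higher and 3.70% lower. The direct test between the HFpEF groups called 486 genes (3.58%). Of the 1760 genes called against control, 214 were called in that test too: 66 were higher and 141 lower than in both groups, and 7 lay between. The list of fatty acid oxidation had a median of 0.23 in HFpEF-scr against control, with 17 of 28 called higher and 1 lower. Of the 17 peroxisomal genes, HFpEF-scr had 6 called higher and 1 lower than control. Between the HFpEF groups the fatty acid oxidation list had a median of 0.15, with 2 of 28 called, among them Etfa (0.17 ± 0.04, adjusted p = 0.0199). Acot1 had 1.65 ± 0.19 in HFpEF-scr and 0.00 ± 0.18 between the HFpEF groups. Among genes higher than in both groups, Fmo2, a flavin monooxygenase, had 31.7, 38.9, 40.001, 39.8 and 44.9 CPM in controls and 88.2, 50.4, 115, 68.1 and 81.3 CPM in hairpin libraries, against 47.8 ± 8.93 CPM in HFpEF-scr. It rose by 1.05 ± 0.17 against control and 0.76 ± 0.18 against HFpEF-scr (adjusted p = 0.0322). Osgin1, a stress gene driven by NRF2, rose by 0.75 ± 0.14 and 0.91 ± 0.16, Nampt, which makes NAD, by 0.64 ± 0.07 and 0.36 ± 0.08, Aldh1a1, a retinal dehydrogenase, by 0.71 ± 0.12 and 0.57 ± 0.12, and Creg1, a lysosomal glycoprotein, by 0.57 ± 0.06 and 0.25 ± 0.06. Snrpn, an imprinted splicing gene, rose by 0.49 ± 0.06 and 0.32 ± 0.06. Among genes lower than in both, Tnfrsf12a, the receptor of the cytokine TWEAK, had 28.4 to 50.9 CPM in controls and 16.5 to 23.3 CPM in hairpin libraries, a change of -0.91 ± 0.14 and of -0.97 ± 0.15 against HFpEF-scr. Ckap4, a membrane protein of the endoplasmic reticulum, fell by 0.93 (SE 0.12) against control and had -0.71 ± 0.13 against HFpEF-scr, and Meox1, a homeobox factor, had -0.97 ± 0.23 and -1.03 ± 0.24.

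**Figure D5:**
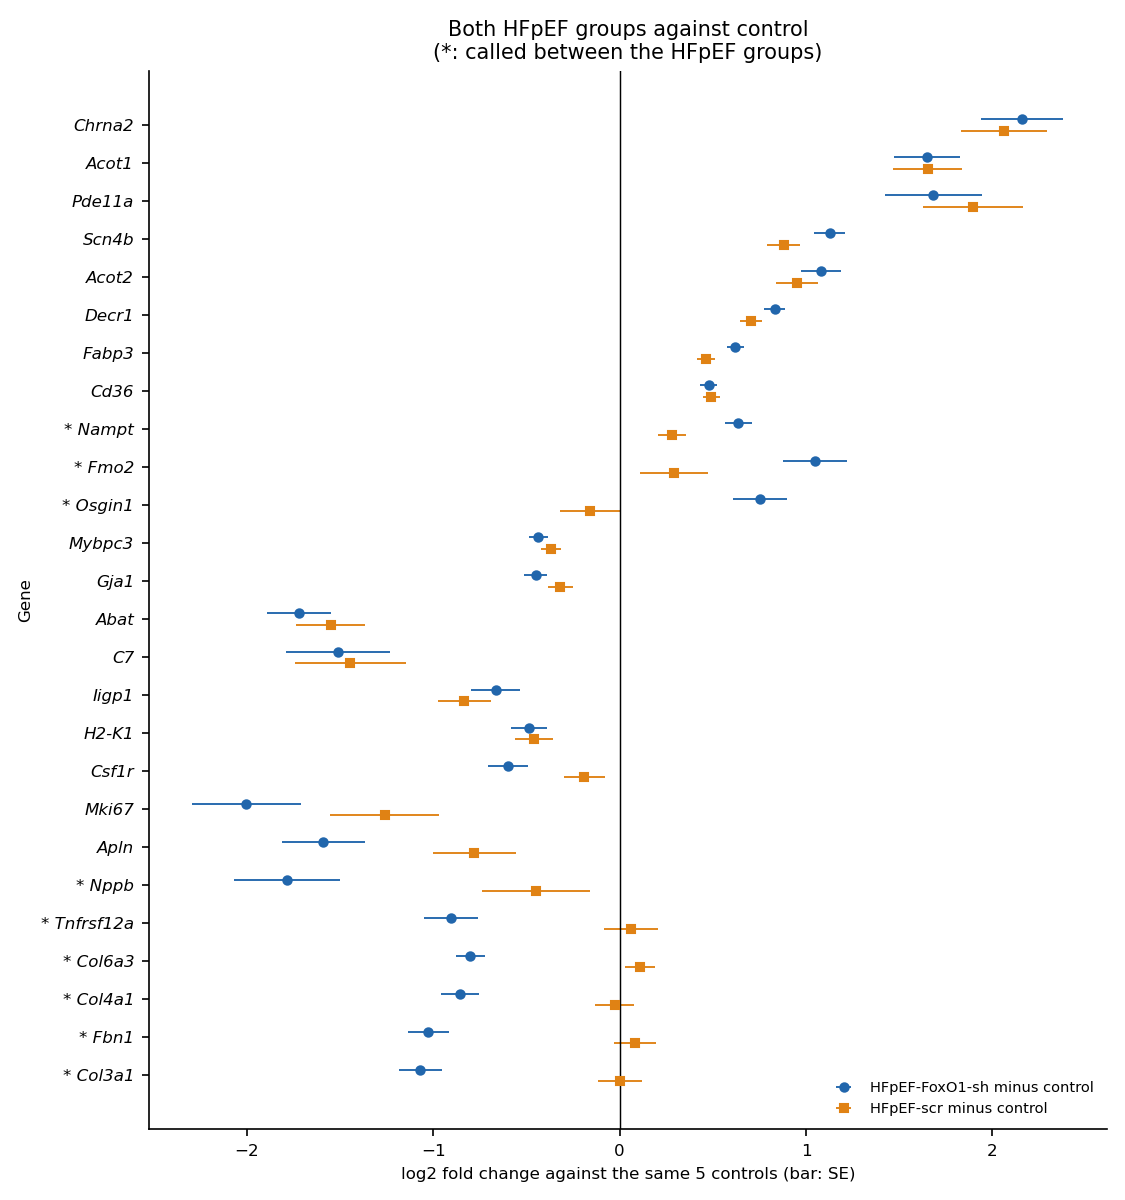
Log2 fold change ± SE against the same 5 controls for 26 genes, HFpEF-FoxO1-sh as blue circles and HFpEF-scr as orange squares, with an asterisk where the direct test between the HFpEF groups called the gene. Chrna2, Acot1 and Abat lie close in both groups, and Col3a1, Fbn1, Col4a1 and Col6a3 lie below 0 in HFpEF-FoxO1-sh and near 0 in HFpEF-scr.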

How the data were processed

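RNA from left ventricles of 14 mouse libraries was sequenced, 5 Control, 4 HFpEF-scr and 5 HFpEF-FoxO1-sh, grouped by their titles. The authors deposited 1 table of expected counts per gene, made with Bowtie2 2.1.0 and RSEM 1.2.15 on mm10, per the submitters' processing notes. The annotation and any use of strand are not given in the sources used here. Between 15.1% and 16.4% of the values of a library were not whole, and all were rounded before testing. The table has 24054 genes, of which 27 carry names turned into dates and match no list.

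Genes were kept by edgeR's filterByExpr (13588), scaled by TMM and tested with edgeR 4.0.16 (quasi-likelihood F-test, two-sided, R 4.3.3) in 1 fit of all 14 libraries, so HFpEF-scr shares the estimate of spread. P-values were adjusted by Benjamini-Hochberg over all genes tested, with calls under 0.05. In 1 simulated data set for this comparison (13564 genes), 100 genes were changed 1.5-fold and 100 were changed 2-fold. Of these, 75% and 90% were recovered, and 5.17% of calls were false. Genes of the lowest levels were not among those changed, so these recovery rates do not cover them. No pair of libraries agreed within sampling noise.

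The members and the 63 gene lists were chosen with earlier results of these data known, so counts over lists carry no test of their own. Of 1615 listed symbols, 1594 were found as listed, 12 under another symbol and 9 not at all. Named genes are the 4 Foxo genes, the 15 largest rises and falls without overlap of groups and with a mean of at least 2 CPM, up to 4 members of each list by p, and 10 genes in each direction that also differed from HFpEF-scr. Other genes named were chosen after their values were seen, and some genes under the rule are not reported here. Promoters came from RefSeq (GRCm38.p6) for 10172 of the tested genes, with motifs matched on both strands.

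Alternatives were DESeq2 1.42.0 (size factors alone and its Wald test), limma 3.58.1 voom, no filter, at least 10 counts in every library, the 10 libraries alone, the replicate number as a block, a test against a fold of 1.2, counts thinned to the smallest total, and leaving out each library.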

Additional observations from a re-analysis of the deposited data

Results flagged for a closer look

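In 348 groups of 5 libraries (174 genes of the report in Control and in HFpEF-FoxO1-sh), 22 held 1 library far from the other 4, by Dixon's test at the 95% level. That is 6.32%, where chance gives about 1 in 20. Control 1 had Arntl at 19.8 CPM, above the others at 1.95 to 5.71 CPM and Bckdhb at 66.3 CPM, above the others at 59.4 to 61.3 CPM. It also had Dbp at 63.7 CPM, below the others at 178 to 218 CPM and Irs1 at 79.5 CPM, above the others at 46.1 to 52.6 CPM. Control 2 had Col1a2 at 154 CPM, above the others at 131 to 136 CPM and Fbn1 at 109 CPM, above the others at 82.1 to 88.4 CPM. It also had Folr2 at 8.38 CPM, above the others at 5.45 to 5.72 CPM and Mgp at 76.7 CPM, above the others at 66.6 to 69.1 CPM. Control 4 had Acot2 at 162 CPM, above the others at 99.4 to 117 CPM and Bdh1 at 75.5 CPM, below the others at 132 to 155 CPM. It also had Cdh5 at 315 CPM, below the others at 348 to 356 CPM and Pdlim1 at 60.2 CPM, below the others at 68.3 to 70.3 CPM. It also had Prkar1a at 634 CPM, below the others at 752 to 776 CPM and Sdf2l1 at 3.50 CPM, below the others at 5.04 to 5.66 CPM. HFpEF-FoxO1-sh 1 had Col4a1 at 330.2 CPM, below the others at 383 to 392 CPM and Tnnt1 at 9.43 CPM, below the others at 11.7 to 12.0 CPM. HFpEF-FoxO1-sh 2 had Bhlhe40 at 77.0 CPM, above the others at 47.3 to 54.5 CPM and Irs1 at 29.1 CPM, below the others at 33.9 to 35.7 CPM. It also had Kcnj5 at 148 CPM, above the others at 137 to 139 CPM and Psma5 at 41.7 CPM, above the others at 37.9 to 38.6 CPM. HFpEF-FoxO1-sh 4 had Bst2 at 13.5 CPM, above the others at 9.00 to 10.2 CPM. HFpEF-FoxO1-sh 5 had Acaa2 at 1060.0 CPM, below the others at 1117 to 1135 CPM. Of the genes above that were called, Arntl lost its call without the library given here (adjusted p = 0.0779), and the others kept theirs.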

How the results depend on the processing

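The count of 1760 called genes came to between 1564 (no filter on low counts) and 2080 (the 10 libraries alone) under DESeq2 size factors, DESeq2's Wald test (1962), limma voom, both filters, thinning (1664) and the fit of 10 libraries. Tested against a fold of 1.2, it was 218, with 82 higher and 136 lower, so the share of higher calls was 37.6% in place of 51.5%. That test asks for a larger change than the main one. Leaving out 1 library gave 1228 (without Control 2) to 1988 (without HFpEF-scr 1) called genes, 630 to 1018 higher and 594 to 970 lower. The share of higher calls stayed between 49.8% and 53.1% in all settings other than the fold test. Foxo1 was not called under any alternative, with differences from -0.086 to -0.029.

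With the replicate number as a block, 1488 genes were called, 767 higher and 721 lower, and Cpt1a was called (0.36, adjusted p = 0.0447). Deviations of equally numbered HFpEF-FoxO1-sh and Control libraries had correlations of -0.108 to 0.111, with 1 of 5 correlating best with its own number, so the numbers were not taken to pair the libraries.

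Of the 154 called genes named with values, 149 kept the call without each of the 14 libraries. Cdk1 passed the filter on low counts in 10 of these refits and was called in them. Against a fold of 1.2, 74 of the 154 were called. Differences of 7 genes that were not called changed sign when 1 library was left out, and the cause was not tested. Over these refits they ran from -0.0075 to 0.023 for Atp2a2, -0.087 to 0.22 for Dbp, -0.71 to 0.19 for Fos, -0.040 to 0.093 for Foxo3, -0.054 to 0.096 for Postn, -0.025 to 0.14 for Ppara and -0.068 to 0.027 for Ryr2. Depth limits genes under the filter, such as most lymphocyte markers, and small changes in the 13174118 counts of the smallest library.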
